A study of Mus musculus with 6 samples.

Results

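Redox defence genes and the genes of the phagocyte NADPH oxidase were compared between mouse leukaemias that arose from LSK cells and leukaemias that arose from granulocyte-macrophage progenitors (GMP). The 37 genes were a list of symbols, looked up by name, and all 37 were found among the 33924 gene rows of the count table and passed the filter on low counts that 13406 rows passed. Both groups carried the MLL-AF9 fusion oncogene, brought in by retrovirus, and differed in the cell transduced. LSK cells are bone marrow cells that lack lineage markers and carry Sca-1 and Kit, a fraction rich in stem cells, and GMP are committed to the myeloid lineage. Each group held 3 RNA sequencing libraries, LSK 44, LSK 45 and LSK 46 for the LSK-derived leukaemias and GMP 5, GMP 11 and GMP 19 for the GMP-derived ones, numbered as in their titles. Immortalised GFP+ cells had been transplanted into lethally irradiated C57BL/6 mice together with support marrow of wild-type mice. Leukaemia cells from the marrow of moribund recipients were then kept in culture with SCF, IL-3 and IL-6, so the RNA is that of cultured cells. The labels give no age, no untransformed control and no sort after harvest, and name no separate transductions or recipients for libraries within a group, so p-values cover only differences among these libraries, possibly technical ones.

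Reactive oxygen species are by-products of respiration and, in phagocytes, the product of an enzyme that transfers electrons from NADPH to oxygen. The transcription factor NRF2, encoded by Nfe2l2 and held in check by KEAP1, induces enzymes that detoxify electrophiles and make or recycle glutathione and thioredoxin. Superoxide dismutases turn superoxide into hydrogen peroxide, which catalase, glutathione peroxidases and peroxiredoxins then remove. In myeloid progenitors both sides of this balance are used, since the oxidase is assembled as granulocytes and monocytes mature.

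LSK 44 was the smallest library with a total of 16640929 counts and GMP 11 the largest with 33885428, and 3 counts amounted to 0.181 CPM (counts scaled to the library's size) in the smallest library. The haematopoietic genes Ptprc and Kit were above 90 CPM in every library, and the 7 lymphocyte markers looked up summed to at most 0.297 CPM. The labelled origin was matched by the stem cell list, whose 6 markers summed to 163 to 272 CPM in LSK-derived and 0.564 to 0.821 CPM in GMP-derived libraries. Markers of other blood cells differed within and between the groups. The 11 neutrophil markers summed to 52.4 to 183 CPM in LSK-derived libraries, and to 20.0 CPM in GMP 5, 89.0 CPM in GMP 11 and 585 CPM in GMP 19. Mmp8 made up most of that sum in LSK-derived libraries (101, 173 and 40.9 CPM, against 1.76, 18.3 and 29.8 CPM in GMP-derived ones) and was not called (adjusted p = 0.0912). S100a9 was at 2.96, 0.275 and 0.666 CPM in LSK-derived libraries, against 5.37, 20.1 and 195 CPM in GMP-derived ones. S100a9 and Ngp were called as lower in LSK-derived leukaemias (adjusted p = 0.0476 and 0.0490) and Ly6g as higher (0.0142), while S100a8 was not called (0.0728). The 10 monocyte and macrophage markers summed to 911 to 2253 CPM in LSK-derived libraries, against 611 CPM in GMP 5, 1809 CPM in GMP 11 and 1700 CPM in GMP 19. Of these markers, Cx3cr1 and Mrc1 were called as higher in LSK-derived leukaemias (adjusted p = 0.0168 and 0.0494) and the others were not called. The 13 erythroid and megakaryocyte markers summed to 25.6 to 196 CPM in LSK-derived libraries, against 2.11 to 13.2 CPM in GMP-derived ones, with Hbb-b2 called as higher. The 12 eosinophil, mast cell and basophil markers summed to 106 to 179 CPM in LSK-derived libraries, against 32.9 to 166 CPM in GMP-derived ones, with Epx, Prg2 and Mcpt8 called as higher. The part of such cells in the results below was not tested. In bulk RNA, fewer cells of a type and less RNA per cell cannot be told apart.

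Of the 37 genes, 3 were higher in LSK-derived leukaemias (Nqo1, Gsta4 and Txn1), 8 were lower (Srxn1, Gpx3, Gstm1, Mgst1, Prdx4, Cat, Cyba and Ncf4) and 26 did not pass an adjusted p of 0.05 in edgeR's quasi-likelihood test. The 11 called genes are 29.7% of the list, where 25.7% of all tested genes were called, 11.8% as higher and 13.9% as lower. The share called was thus near the background. The median log2 fold change, LSK-derived minus GMP-derived, was -0.13 over the 37 genes and 0.01 over all tested genes, and 26 of the 37 values (70.3%) were below 0, against 48.6% of all tested genes. The groups did not overlap in 17 of the 37 genes, against 45.4% of all tested genes. The log2 fold change lay within 0.25 of 0 in 18 of the 37 genes, or 48.6%, a share near the 49.6% of all tested genes. The count of lower genes was 4 without LSK 44, 4 without LSK 46 and 5 with no filter on low counts, and the count of higher genes was 3 or 4 in each fit without a library.

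**Figure D1:**
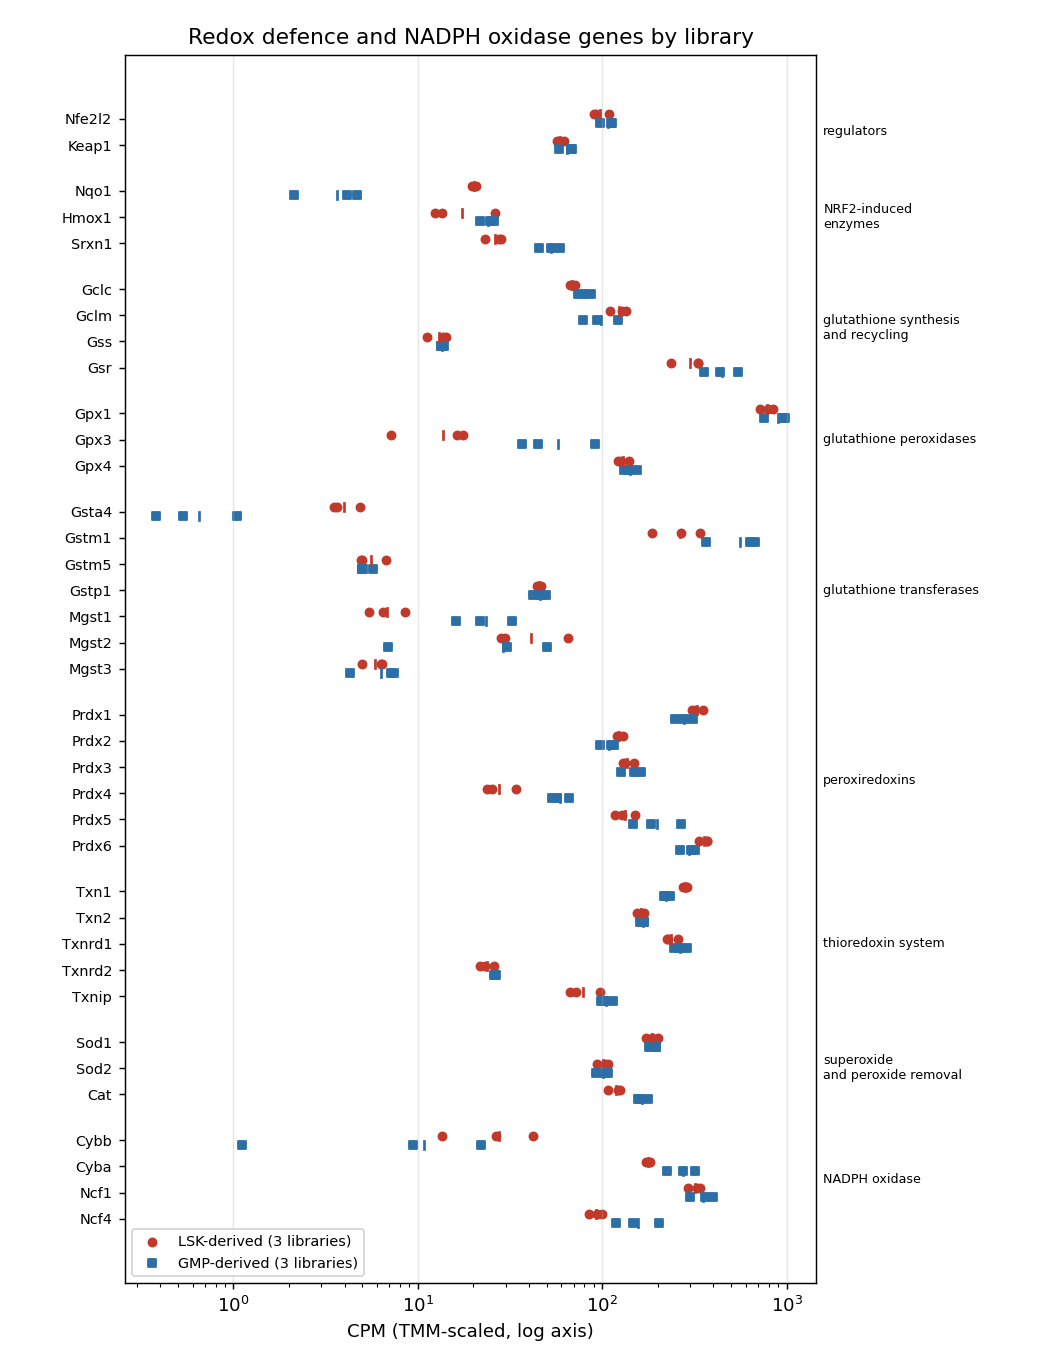
TMM-scaled CPM (log axis) of the 37 genes, ordered by role, in 3 LSK-derived libraries (circles, upper of each pair) and 3 GMP-derived libraries (squares, lower), with a tick at each group mean. Most pairs lie close together, while Nqo1, Gsta4, Gpx3, Mgst1, Srxn1 and Prdx4 are set apart and Cybb and Mgst2 spread widely in the GMP-derived libraries.

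**Figure D2:**
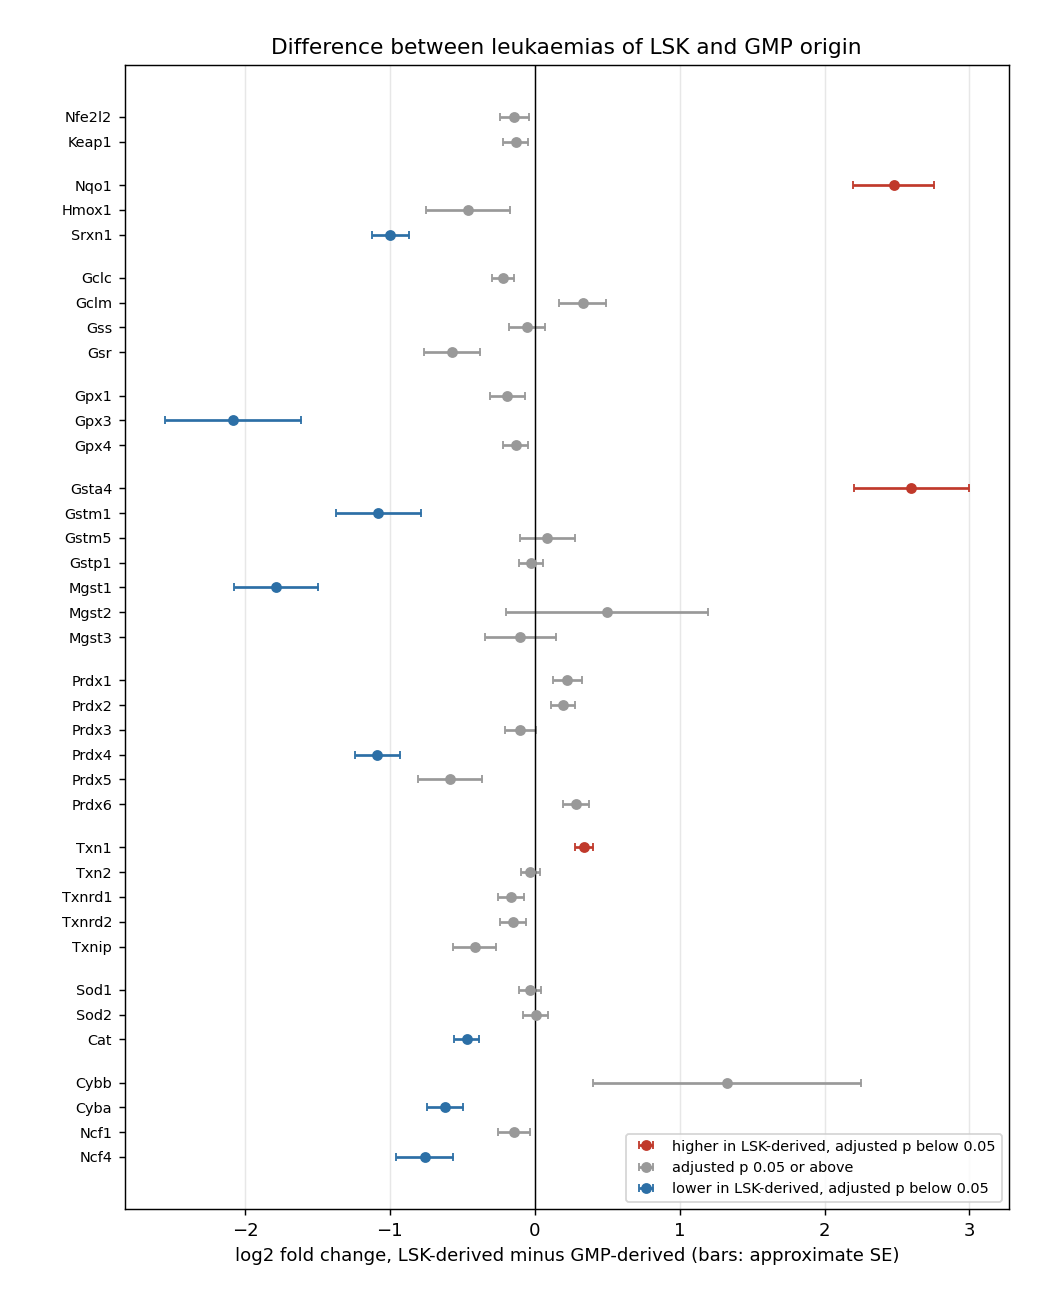
Log2 fold change of each of the 37 genes, LSK-derived minus GMP-derived, with bars of 1 approximate SE. The 3 genes called higher and the 8 called lower in LSK-derived leukaemias are coloured, and the values run from -2.08 for Gpx3 to 2.60 for Gsta4.

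The regulators of the antioxidant response were expressed at similar levels. Values per library are given below in the order LSK 44, LSK 45 and LSK 46, and GMP 5, GMP 11 and GMP 19. Nfe2l2 was at 90.7, 108 and 92.5 CPM in LSK-derived libraries, against 96.9, 113 and 112 CPM in GMP-derived ones (log2 fold change -0.14 ± 0.10, approximate SE, adjusted p = 0.332). Keap1, which encodes the adaptor that directs NRF2 to degradation, was at 57.1, 57.9 and 62.0 CPM in LSK-derived libraries, against 58.3, 68.1 and 67.5 CPM in GMP-derived ones (log2 fold change -0.13 ± 0.09, adjusted p = 0.294). The groups overlapped in both genes, and neither passed in any of 11 alternative fits. Of 10 other tested genes that regulate or resemble NRF2, 2 were higher, 2 were lower and 6 did not pass. The share called was 40%, against 25.7% of all tested genes. Bach1, which encodes a repressor that competes with NRF2 at its sites, averaged 90.7 ± 6.17 CPM in LSK-derived libraries, against 115 ± 4.98 CPM in GMP-derived ones (SD, n = 3 each, log2 fold change -0.35 ± 0.07, adjusted p = 0.0166, range 0.00124 to 0.0644 over its alternatives). Mafk, which encodes a small MAF partner of both, averaged 42.7 ± 2.13 CPM in LSK-derived libraries, against 31.5 ± 4.08 CPM in GMP-derived ones (log2 fold change 0.44 ± 0.11, adjusted p = 0.0269, range 0.00542 to 0.0768). Maff, another small MAF gene, was 1.81-fold higher at a low level (4.91 ± 0.954 CPM in LSK-derived against 2.71 ± 0.251 CPM in GMP-derived libraries), and Nfe2l1, a relative of Nfe2l2, was 1.19-fold lower (213 ± 6.44 CPM in LSK-derived against 253 ± 3.19 CPM in GMP-derived libraries). Mafg did not pass (145 ± 6.18 CPM in LSK-derived against 131 ± 12.6 CPM in GMP-derived libraries, adjusted p = 0.272). Without LSK 44 or without LSK 46 no gene of the list was called in either direction, whereas without LSK 45 or without GMP 5 there were 1 higher and 2 lower.

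Enzymes that NRF2 is known to induce differed in opposite directions. Nqo1, which encodes a quinone reductase, was at 20.3, 19.7 and 20.6 CPM in LSK-derived libraries, against 4.67, 2.14 and 4.10 CPM in GMP-derived ones. The lowest LSK-derived library was above every GMP-derived library, and the difference was 5.57-fold (log2 fold change 2.48 ± 0.28, adjusted p = 0.00191). Srxn1, which encodes the sulfiredoxin that repairs over-oxidised peroxiredoxins, was at 27.6, 28.1 and 23.1 CPM in LSK-derived libraries, against 59.0, 52.9 and 45.4 CPM in GMP-derived ones. Here every LSK-derived library was below every GMP-derived one (log2 fold change -1.00 ± 0.13, adjusted p = 0.00279). Both calls held in each of 11 alternative fits. The ratio of Nqo1 to Srxn1 counts within a library needs no scaling between libraries. It was 0.733, 0.703 and 0.892 in LSK-derived and 0.0792, 0.0404 and 0.0905 in GMP-derived libraries. With both genes apart in opposite directions, the groups had to be apart in this ratio. Hmox1, which encodes the haem oxygenase, was at 12.4, 26.3 and 13.6 CPM in LSK-derived libraries, against 21.8, 25.7 and 24.6 CPM in GMP-derived ones. LSK 45 lay above all GMP-derived libraries and the other two below them, and the gene was not called (log2 fold change -0.46 ± 0.29, adjusted p = 0.285). Without LSK 45 it was called as lower (log2 fold change -0.89, adjusted p = 0.00747, in a range up to 0.572).

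The 250 bases before the annotated start are shown for Nqo1 and Srxn1, which moved apart. They are also shown for Mgst1, the called gene in which TGACNNNGC was found, and for Prdx1, where 2 motifs overlap. Sequences are RefSeq's on GRCm38.p6, another build than the mm9 of the count table, and read 5′ to 3′ on the gene's strand. Capitals mark TGACNNNGC, the core of the antioxidant response element, searched on both strands, and TGANTCA, the core bound by AP-1 and NF-E2 proteins, which reads alike on both strands up to its middle base.
Nqo1, chr8:107403206-107403455, minus strand: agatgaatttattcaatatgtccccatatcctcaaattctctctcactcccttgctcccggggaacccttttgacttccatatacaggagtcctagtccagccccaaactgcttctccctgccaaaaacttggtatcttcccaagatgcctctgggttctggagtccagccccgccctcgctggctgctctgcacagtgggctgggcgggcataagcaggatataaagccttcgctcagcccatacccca
Srxn1, chr2:152105274-152105523, plus strand: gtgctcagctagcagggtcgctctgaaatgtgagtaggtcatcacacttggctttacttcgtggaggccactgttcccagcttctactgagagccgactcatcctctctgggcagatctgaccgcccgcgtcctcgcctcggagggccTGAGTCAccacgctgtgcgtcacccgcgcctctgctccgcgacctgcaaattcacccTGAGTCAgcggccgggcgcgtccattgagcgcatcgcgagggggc
Mgst1, chr6:138140277-138140526, plus strand: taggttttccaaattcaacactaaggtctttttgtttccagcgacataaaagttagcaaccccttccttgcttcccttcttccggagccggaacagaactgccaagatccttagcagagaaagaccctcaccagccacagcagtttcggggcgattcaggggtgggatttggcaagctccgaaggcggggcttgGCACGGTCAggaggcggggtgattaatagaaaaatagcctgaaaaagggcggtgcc
Prdx1, chr4:116685349-116685598, plus strand: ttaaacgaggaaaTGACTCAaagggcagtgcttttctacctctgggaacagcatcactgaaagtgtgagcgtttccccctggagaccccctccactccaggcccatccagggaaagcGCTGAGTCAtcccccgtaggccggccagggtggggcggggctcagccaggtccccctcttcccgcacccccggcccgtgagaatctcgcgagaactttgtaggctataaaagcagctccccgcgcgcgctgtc
Neither motif was found in the Nqo1 window. Other forms of these motifs, and sites beyond the 250 bases, were not searched. Srxn1 held TGANTCA at 2 places, with first bases 102 and 45 bases before the start. With the bases after it, the one at 45 reads TGAGTCAGC, with G where TGACNNNGC has its first C. Mgst1 held the antioxidant core with its first base 56 bases before the start shown. The window of another annotated Mgst1 start, chr6:138141337-138141586, held neither motif. Prdx1 held the antioxidant core 133 bases before its start, overlapping a TGANTCA at 131, with a second TGANTCA at 237. Of the 37 genes, 31 had a promoter in the table, with 38 starts between them. TGACNNNGC was present in 18.4% of these 38 windows and in 10.2% of all 32851 windows of that length, and TGANTCA in 15.8% and 6.75%. The second motif was added after the Srxn1 sequence had been read. The genes with TGACNNNGC were Gclm, Gstm5, Mgst1, Nfe2l2, Prdx1, Sod1 and Txnrd1. Of these 7, 1 was called (Mgst1), against 9 of all 31 and 25.7% of all tested genes. The counts are too small to compare. A match describes letters and does not show binding.

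Genes known to be induced by NRF2 that are outside the 37 were, where called, lower. Of 18 tested, 7 were lower and 11 did not pass (38.9% called, against 25.7% of all tested genes). Ftl1, the ferritin light chain, was at 486, 510 and 486 CPM in LSK-derived libraries, against 884, 1176 and 1177 CPM in GMP-derived ones (log2 fold change -1.13 ± 0.12, adjusted p = 0.00152). Osgin1, a stress-induced growth inhibitor gene, averaged 2.24 ± 0.569 CPM in LSK-derived libraries, against 8.36 ± 1.81 CPM in GMP-derived ones (log2 fold change -1.89 ± 0.26, adjusted p = 0.00378). Cbr1, a carbonyl reductase gene, averaged 11 ± 0.947 CPM in LSK-derived libraries, against 19.3 ± 3.74 CPM in GMP-derived ones (adjusted p = 0.0134, range 0.000299 to 0.0559, highest without LSK 44). The others were Slc7a11, Me1, Pgd and Taldo1. Slc7a11 encodes the cystine importer that feeds glutathione synthesis and averaged 21.7 ± 2.96 CPM in LSK-derived libraries, against 30.9 ± 3.47 CPM in GMP-derived ones (adjusted p = 0.0319, range 0.00673 to 0.106). The count of lower genes was 2 without LSK 44, 3 without LSK 46 and 4 without GMP 11.

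**Figure D3:**
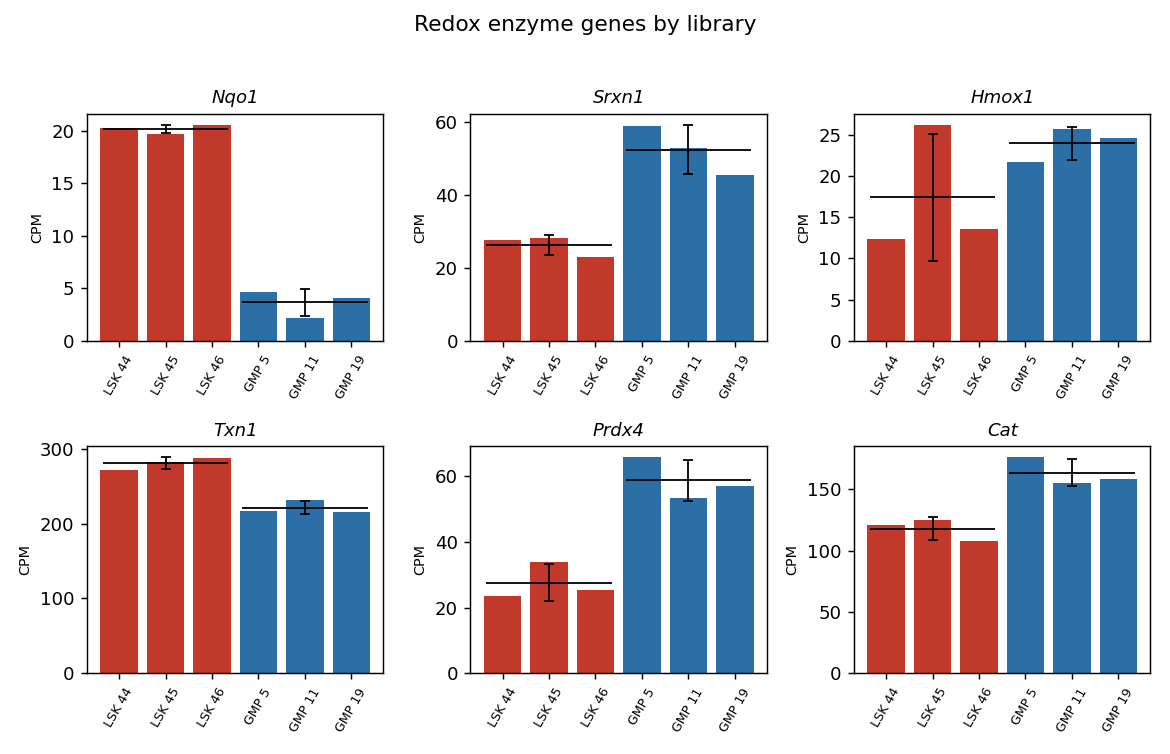
CPM of 6 redox enzyme genes in each LSK-derived library (left, red) and each GMP-derived library (right, blue), with lines at group means and bars of 1 SD (n = 3). Nqo1 and Txn1 are higher in all LSK-derived libraries, Srxn1, Prdx4 and Cat are lower in all of them, and Hmox1 in LSK 45 reaches the GMP-derived level.

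Genes of glutathione synthesis and recycling did not pass (0% of 4 called, against 25.7% of all tested genes). Gclc, the catalytic subunit of the rate-limiting enzyme, was at 71.4, 68.2 and 66.9 CPM in LSK-derived libraries, against 87.1, 79.0 and 74.2 CPM in GMP-derived ones. The groups did not overlap, and the adjusted p was 0.0844 (log2 fold change -0.22 ± 0.08). Its modifier subunit gene Gclm was at 127, 110 and 134 CPM in LSK-derived libraries, against 122, 94.1 and 79.0 CPM in GMP-derived ones (log2 fold change 0.33 ± 0.16, adjusted p = 0.183). Without GMP 5, the GMP-derived library within the LSK-derived range, Gclm was called as higher (adjusted p = 0.0275, in a range up to 0.391). The ratio of Gclc to Gclm counts was 0.560, 0.622 and 0.501 in LSK-derived and 0.715, 0.840 and 0.940 in GMP-derived libraries, without overlap. Gss, which encodes the second enzyme of synthesis, averaged 13 ± 1.54 CPM in LSK-derived libraries, against 13.5 ± 0.248 CPM in GMP-derived ones (adjusted p = 0.788). Gsr, the reductase that restores oxidised glutathione with NADPH, was at 330, 332 and 236 CPM in LSK-derived libraries, against 357, 436 and 543 CPM in GMP-derived ones (log2 fold change -0.57 ± 0.19, adjusted p = 0.0727). Every LSK-derived library was below every GMP-derived one, and Gsr was called by DESeq2 (adjusted p = 0.0123) and without GMP 5 (0.0405), in a range up to 0.187.

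Among glutathione peroxidases, the secreted enzyme differed and the intracellular ones did not pass. Gpx3, the extracellular form, was at 16.2, 7.18 and 17.6 CPM in LSK-derived libraries, against 36.7, 44.7 and 91.4 CPM in GMP-derived ones. The groups were apart, with LSK 45 the lowest and GMP 19 the highest library (log2 fold change -2.08 ± 0.47, adjusted p = 0.0224). The call was lost with no filter on low counts (adjusted p = 0.0786) and without LSK 44 (0.0689), LSK 46 (0.0604) or GMP 19 (0.0547), in a range from 0.00117. Gpx1, the main cytosolic enzyme, was at 787, 847 and 714 CPM in LSK-derived libraries, against 749, 949 and 978 CPM in GMP-derived ones (adjusted p = 0.281). Gpx4, which reduces lipid hydroperoxides and protects against ferroptosis, averaged 129 ± 9.67 CPM in LSK-derived libraries, against 142 ± 11.1 CPM in GMP-derived ones (log2 fold change -0.13 ± 0.09, adjusted p = 0.307). Its reads are uncertain, since 61.7% of the 50-base windows of its transcript also occur in transcripts of other genes, chiefly a pseudogene. Per kilobase of transcript, mean levels in LSK-derived libraries were 730 CPM for Gpx1, 130 for Gpx4 and 8.57 for Gpx3, and in GMP-derived libraries 832, 142 and 36.1, an order shared by both groups.

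Glutathione transferases, which couple glutathione to electrophiles, held the largest fitted difference of the set, that of Gsta4. Gsta4, whose enzyme removes the lipid peroxidation product 4-hydroxynonenal, was at 3.63, 4.83 and 3.50 CPM in LSK-derived libraries, against 0.533, 1.04 and 0.381 CPM in GMP-derived ones (log2 fold change 2.60 ± 0.39, adjusted p = 0.00511). It was thus 6.06-fold higher at a low level, from 60, 123 and 84 counts in LSK-derived and 13, 35 and 13 counts in GMP-derived libraries. Mgst1, a membrane-bound transferase and peroxidase gene, was at 8.47, 5.46 and 6.50 CPM in LSK-derived libraries, against 16.1, 21.6 and 32.3 CPM in GMP-derived ones (log2 fold change -1.78 ± 0.29, adjusted p = 0.00697). Both calls held in each of 11 alternative fits. Gstm1, a cytosolic mu-class gene, was at 268, 338 and 186 CPM in LSK-derived libraries, against 366, 634 and 671 CPM in GMP-derived ones. GMP 5 lay nearer to LSK 45 than to the other GMP-derived libraries, and the call was weak (log2 fold change -1.08 ± 0.30, adjusted p = 0.0415). It was lost with no filter (0.111) and without LSK 44 (0.120), LSK 46 (0.111), GMP 11 (0.105) or GMP 19 (0.133), in a range from 0.000288. With the 7 rows Gstm1 to Gstm7 summed before the fit, the log2 fold change was -1.19 (adjusted p = 0.0224). The sum does not depend on how reads were divided among these rows, but Gstm1 made up 76.1 to 88.8% of it in a library. It leaves out Gstm2-ps1, the gene that shares most with Gstm1, of whose 50-base windows 23.1% occur in other genes. The sum was not refitted in the other alternatives, so it does not show that the weak call holds there.

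The other mu-class genes did not all follow Gstm1. Gstm2 was at 3.51, 2.08 and 1.79 CPM in LSK-derived libraries, against 64.7, 54.0 and 101 CPM in GMP-derived ones (log2 fold change -4.93 ± 0.36, adjusted p = 0.000681). It made up 0.547 to 1.15% of the summed Gstm CPM of a library in the LSK-derived group and 7.18 to 13.4% in the GMP-derived group. Gstm4 averaged 27.2 ± 1.31 CPM in LSK-derived libraries, against 52.7 ± 8.52 CPM in GMP-derived ones (log2 fold change -0.96 ± 0.13, adjusted p = 0.00327). Both calls held in each of 11 alternative fits. Gstm5 was at 4.96, 6.75 and 4.91 CPM in LSK-derived libraries, against 4.96, 5.73 and 4.98 CPM in GMP-derived ones, short of the threshold (log2 fold change 0.09 ± 0.19, adjusted p = 0.772). Gstp1, the pi-class gene, was at 45.2, 46.2 and 44.4 CPM in LSK-derived libraries, against 42.3, 46.2 and 49.7 CPM in GMP-derived ones (log2 fold change -0.03 ± 0.08, adjusted p = 0.846). Its 50-base windows are shared to 62.3% with other genes, mainly its copy Gstp2, which had 0 counts in every library, so these values are uncertain. Mgst2 and Mgst3, membrane-bound transferases of which Mgst2 can also make leukotriene C4, did not pass. Mgst2 was at 29.8, 65.2 and 28.3 CPM in LSK-derived libraries, against 6.84, 30.3 and 50.02 CPM in GMP-derived ones, a 7.31-fold spread within the GMP-derived group (adjusted p = 0.640). Mgst3 averaged 5.88 ± 0.801 CPM in LSK-derived libraries, against 6.30 ± 1.74 CPM in GMP-derived ones (adjusted p = 0.800).

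**Figure D4:**
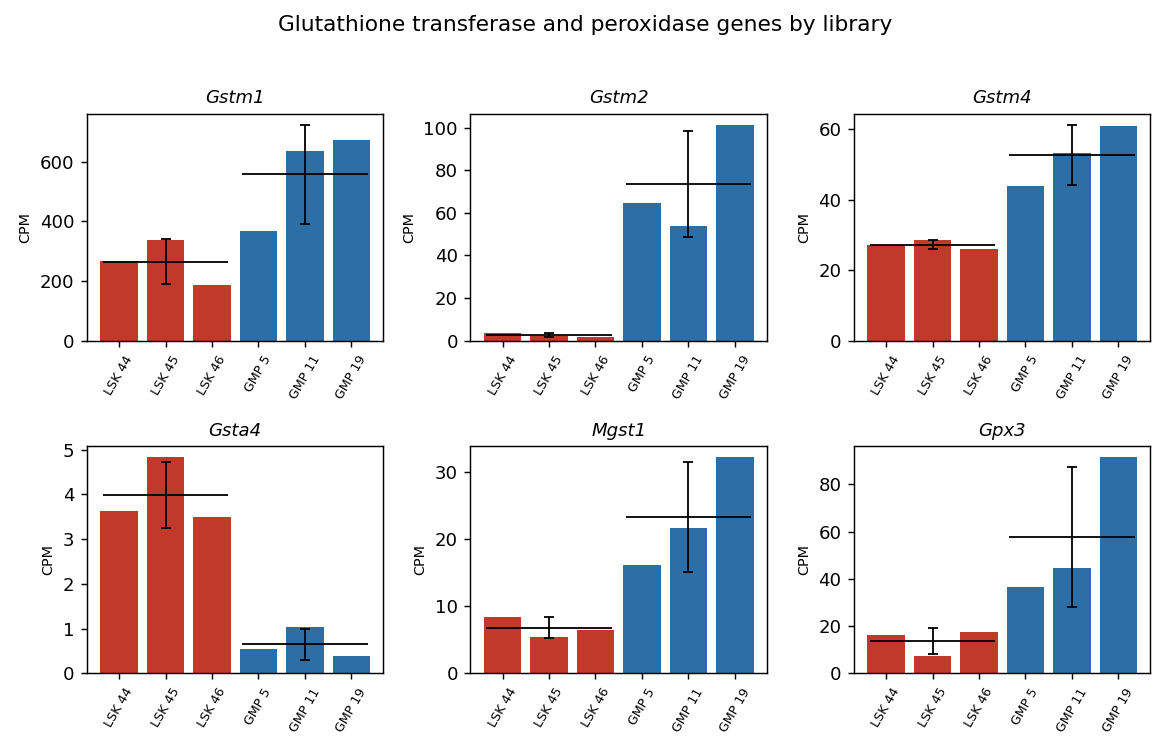
CPM of Gstm1, its relatives Gstm2 and Gstm4, and Gsta4, Mgst1 and Gpx3 in each LSK-derived library (left, red) and each GMP-derived library (right, blue), with lines at group means and bars of 1 SD (n = 3). Gsta4 is higher in every LSK-derived library and the other 5 genes are lower, with Gstm2 at most 3.51 CPM in an LSK-derived library.

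Other glutathione genes outside the 37 gave 1 higher, 7 lower and 15 not passing of 23 tested (34.8% called, against 25.7% of all tested genes). Besides Gstm2 and Gstm4, Ggt5, which encodes a glutathione-cleaving transpeptidase, was lower (0.134 ± 0.0575 CPM in LSK-derived libraries, against 3.78 ± 2.23 CPM in GMP-derived ones, adjusted p = 0.00330). Gstk1, Slc7a11, Ggt1 and Chac1 were also lower, and Slc7a11 is counted among the genes induced by NRF2 as well. Glrx, a glutaredoxin gene, was the higher one (83.6 ± 8.93 CPM in LSK-derived libraries, against 60.4 ± 8.82 CPM in GMP-derived ones, adjusted p = 0.0371, range 0.00802 to 0.116). Without LSK 44 or without GMP 11 the count of lower genes was 4, and without a single library the count of higher genes was 0 to 2.

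Of the 6 peroxiredoxins, enzymes that remove peroxides with electrons from thioredoxin or glutathione, 1 differed. That is 16.7% called, against 25.7% of all tested genes. Prdx4, the form of the endoplasmic reticulum, was at 23.7, 34 and 25.2 CPM in LSK-derived libraries, against 65.9, 53.5 and 57.1 CPM in GMP-derived ones. The groups were well apart (log2 fold change -1.09 ± 0.16, adjusted p = 0.00413), and the call held in each of 11 alternative fits. Prdx6, the 1-cysteine form that also acts on phospholipids, was at 370, 369 and 333 CPM in LSK-derived libraries, against 301, 318 and 263 CPM in GMP-derived ones, without overlap (log2 fold change 0.28 ± 0.09, adjusted p = 0.0577). It was called with upper-quartile scaling (0.0420) and by DESeq2 (0.0252), in a range up to 0.169. Prdx1, a cytosolic form, was at 352, 307 and 316 CPM in LSK-derived libraries, against 308, 277 and 248 CPM in GMP-derived ones (log2 fold change 0.23 ± 0.10, adjusted p = 0.137). Prdx2, another cytosolic form abundant in red cells, averaged 124 ± 4.98 CPM in LSK-derived libraries, against 108 ± 9.24 CPM in GMP-derived ones (adjusted p = 0.123). Neither passed, and the mitochondrial Prdx3 was at 136 ± 10.2 CPM in LSK-derived libraries, against 146 ± 18.0 CPM in GMP-derived ones (adjusted p = 0.528). Prdx5, found in mitochondria and peroxisomes, was at 128, 151 and 118 CPM in LSK-derived libraries, against 147, 183 and 266 CPM in GMP-derived ones (log2 fold change -0.59 ± 0.22, adjusted p = 0.102). LSK 45 overlapped GMP 5, and Prdx5 was called by DESeq2 (0.0246) and without GMP 5 (0.0352), in a range up to 0.258. Exons of Prdx5 overlap the tested gene Trmt112 and those of Prdx2 overlap Rnaseh2a, both on the opposite strand. The 6 genes summed to 1102 ± 52.1 CPM in LSK-derived libraries, against 1083 ± 22.0 CPM in GMP-derived ones. Per kilobase, Prdx6, Prdx1, Prdx5, Prdx3, Prdx2 and Prdx4 averaged 150, 142, 105, 92.1, 76.7 and 27.9 CPM in LSK-derived libraries, and 123, 121, 157, 98.7, 67.0 and 59.4 CPM in GMP-derived libraries.

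Of the thioredoxin system, Txn1 was higher by a small amount. Txn1, the cytosolic thioredoxin that donates electrons to peroxiredoxins, was at 272, 283 and 287 CPM in LSK-derived libraries, against 217, 232 and 215 CPM in GMP-derived ones. Libraries within a group differed little, and the 1.27-fold difference was called in each of 11 alternative fits (log2 fold change 0.34 ± 0.06, adjusted p = 0.00974). Txnrd1, the cytosolic reductase gene, was at 258, 228 and 223 CPM in LSK-derived libraries, against 261, 288 and 244 CPM in GMP-derived ones (adjusted p = 0.231). The mitochondrial pair did not pass. Txn2 averaged 162 ± 7.04 CPM in LSK-derived libraries, against 166 ± 5.52 CPM in GMP-derived ones (adjusted p = 0.767), and Txnrd2 averaged 23.5 ± 1.98 CPM in LSK-derived libraries, against 26.1 ± 0.313 CPM in GMP-derived ones (adjusted p = 0.262). Txnip, which encodes an inhibitor of thioredoxin and of glucose uptake, was at 66.8, 97.3 and 71.6 CPM in LSK-derived libraries, against 97.8, 102 and 115 CPM in GMP-derived ones. The groups just failed to overlap (log2 fold change -0.41 ± 0.15, adjusted p = 0.0848), and Txnip was called by DESeq2 (0.0398) and without LSK 45 (0.0107), in a range up to 0.238. Exons of Txnip overlap those of the tested gene Gm15441 on the other strand.

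Of 18 tested genes on a further list of thioredoxin-like, sestrin and methionine sulfoxide reductase genes, 2 were higher, 3 were lower and 13 did not pass. The share called was 27.8%, near the 25.7% of all tested genes. Sestrins are stress proteins that limit oxidation and mTORC1. Sesn1 was higher (102 ± 18.4 CPM in LSK-derived libraries, against 59.0 ± 8.26 CPM in GMP-derived ones, adjusted p = 0.0123), as was Sesn3 (5.01 ± 0.0643 CPM in LSK-derived against 1.90 ± 0.199 CPM in GMP-derived libraries, adjusted p = 0.00308). Sesn2 was lower (40.7 ± 2.68 CPM in LSK-derived against 53.2 ± 7.01 CPM in GMP-derived libraries, adjusted p = 0.0440), a call lost in 7 of 11 alternative fits (up to 0.144). Sepx1, the older symbol of the methionine sulfoxide reductase gene Msrb1, was at 86.7, 103 and 68.4 CPM in LSK-derived libraries, against 176, 182 and 263 CPM in GMP-derived ones (log2 fold change -1.26 ± 0.21, adjusted p = 0.00845). Nxn, a nucleoredoxin gene, was 1.28-fold lower, and its call too was lost in 7 of 11 alternatives (adjusted p = 0.0411, up to 0.136). The count of lower genes was 1 without LSK 44, without LSK 46 or with upper-quartile scaling.

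Catalase differed, while both intracellular superoxide dismutases were at like levels. Cat was at 121, 125 and 108 CPM in LSK-derived libraries, against 176, 155 and 159 CPM in GMP-derived ones. Every LSK-derived library was below every GMP-derived one (log2 fold change -0.47 ± 0.09, adjusted p = 0.00971), and the call held in each of 11 alternative fits. Sod1, the cytosolic copper and zinc enzyme, was at 185, 173 and 200 CPM in LSK-derived libraries, against 195, 197 and 180 CPM in GMP-derived ones (log2 fold change -0.03 ± 0.08, adjusted p = 0.802). Sod2, the mitochondrial manganese enzyme, was at 107, 93.3 and 103 CPM in LSK-derived libraries, against 102, 108 and 92.5 CPM in GMP-derived ones (log2 fold change 0.01 ± 0.09, adjusted p = 0.970). The groups overlapped in both. On a list of 6 further tested genes, Epx was higher and Aifm2 and Ucp2 were lower (50% called, against 25.7% of all tested genes). Epx, eosinophil peroxidase, was at 22.1, 2.63 and 10.8 CPM in LSK-derived libraries, with no GMP-derived library above 0.0820 CPM, and is itself one of the eosinophil markers. Aifm2, which encodes the ferroptosis suppressor FSP1, averaged 8.89 ± 0.780 CPM in LSK-derived libraries, against 18.7 ± 1.72 CPM in GMP-derived ones (log2 fold change -1.07 ± 0.13, adjusted p = 0.00214). Ucp2, a mitochondrial carrier gene, averaged 640 ± 29.3 CPM in LSK-derived libraries, against 923 ± 67.0 CPM in GMP-derived ones (adjusted p = 0.00427). Mpo, the granule enzyme that uses hydrogen peroxide, was at 1415, 795 and 819 CPM in LSK-derived libraries, against 13.8, 316 and 500 CPM in GMP-derived ones. The groups were apart, the spread in the GMP-derived group was wide, and Mpo did not pass (adjusted p = 0.247), but was called without GMP 5 (0.0448, in a range up to 0.452).

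The NADPH oxidase of phagocytes consists of a membrane pair, gp91phox (Cybb) and p22phox (Cyba), and cytosolic subunits that include p47phox (Ncf1) and p40phox (Ncf4), with the GTPase RAC2. Cyba and Ncf4 were lower in LSK-derived leukaemias, and Cybb and Ncf1 did not pass (50% of 4 called, against 25.7% of all tested genes). Cyba was at 181, 178 and 173 CPM in LSK-derived libraries, against 225, 273 and 319 CPM in GMP-derived ones (log2 fold change -0.62 ± 0.12, adjusted p = 0.0133). The LSK-derived libraries lay close together and below all GMP-derived ones, and the adjusted p was 0.0505 without LSK 44 and 0.0557 without LSK 46, in a range from 6.48e-05. Ncf4 was at 93.4, 99.0 and 84.7 CPM in LSK-derived libraries, against 119, 146 and 204 CPM in GMP-derived ones (log2 fold change -0.76 ± 0.19, adjusted p = 0.0321). Its call was lost in 5 of 11 alternatives, with no filter (0.0569) and without LSK 44 (0.0968), LSK 45 (0.0614), LSK 46 (0.109) or GMP 11 (0.0638), in a range from 0.000694. Ncf1 was at 326, 337 and 293 CPM in LSK-derived libraries, against 300, 359 and 396 CPM in GMP-derived ones, with overlap (log2 fold change -0.14 ± 0.11, adjusted p = 0.393).

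Cybb, which encodes the catalytic subunit, varied more between libraries than any other of the 37 genes. It was at 26.4, 42.3 and 13.5 CPM in LSK-derived libraries, against 1.11, 9.41 and 22.0 CPM in GMP-derived ones. The groups overlapped, and the highest GMP-derived library had 19.9 times the CPM of the lowest, against 3.14 times in the LSK-derived group (log2 fold change 1.33 ± 0.93, adjusted p = 0.339, range 0.172 to 0.619). The value of 1.11 CPM in GMP 5 came from 27 counts. The ratio of Cybb to Cyba counts was 0.145, 0.237 and 0.0780 in LSK-derived and 0.00492, 0.0345 and 0.0690 in GMP-derived libraries. The groups did not overlap in this ratio, but LSK 46 and GMP 19 lay close. Cyba alone did not overlap either, as was so for 45.4% of all tested genes. LSK 45, the library highest in Cybb and Mgst2, also had the highest monocyte and macrophage marker sum, and GMP 5, the lowest in both genes, had the lowest sum. Not all other libraries followed this order. GMP 11 had a higher sum than GMP 19 (1809 against 1700 CPM) but was lower in both genes. LSK 46 had a lower sum than GMP 11 (911 CPM) but was higher in Cybb. Much of the sum was Ly6c2, at 1155 CPM in LSK 45 and 293 CPM in GMP 5. Emr1, a macrophage marker on the same list, was instead highest in GMP 5, at 159 CPM against 43.7 CPM in LSK 45. The part of monocytes and macrophages in the values was not tested.

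**Figure D5:**
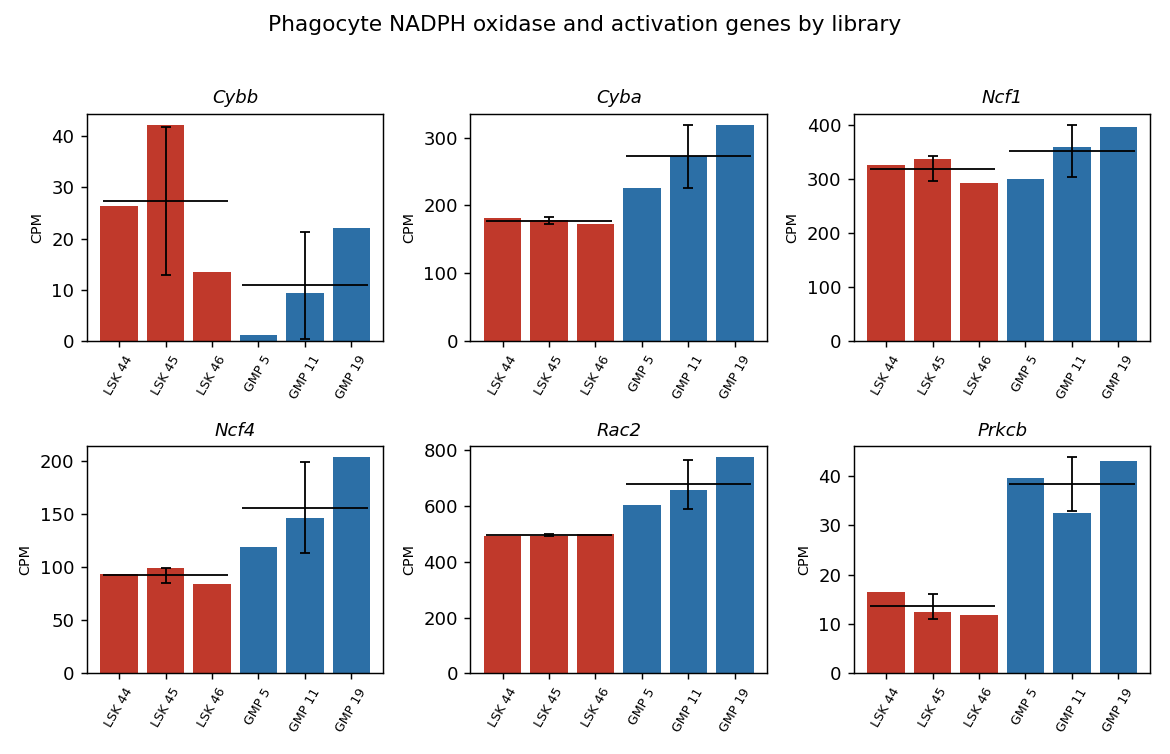
CPM of 6 genes of the phagocyte NADPH oxidase and its activation in each LSK-derived library (left, red) and each GMP-derived library (right, blue), with lines at group means and bars of 1 SD (n = 3). Cyba, Ncf4, Rac2 and Prkcb are lower in every LSK-derived library, while Cybb ranges from 1.11 CPM in GMP 5 to 42.3 CPM in LSK 45.

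Further genes of the oxidase and its activation were, where called, also lower, with 5 lower and 7 not passing of 12 tested. The share called was 41.7%, against 25.7% of all tested genes. Rac2 averaged 495 ± 2.97 CPM in LSK-derived libraries, against 679 ± 87.8 CPM in GMP-derived ones (log2 fold change -0.45 ± 0.10, adjusted p = 0.0163, range 0.000293 to 0.0642, lost without LSK 44 or LSK 46). Prkcb and Prkcd, protein kinase C genes whose products phosphorylate p47phox, were lower. Prkcb averaged 13.6 ± 2.51 CPM in LSK-derived libraries, against 38.3 ± 5.44 CPM in GMP-derived ones (log2 fold change -1.50 ± 0.16, adjusted p = 0.00176). Prkcd averaged 136 ± 7.12 CPM in LSK-derived libraries, against 210 ± 15.6 CPM in GMP-derived ones (log2 fold change -0.63 ± 0.08, adjusted p = 0.00270). Arhgdib, which encodes an inhibitor that keeps RAC proteins in the cytosol, was 1.48-fold lower (1169 ± 104 CPM in LSK-derived against 1733 ± 127 CPM in GMP-derived libraries, adjusted p = 0.00591), and Rap1a was the remaining called gene. The count was 3 without LSK 44. Of the other oxidases listed, Nox1, Nox3, Nox4, Duox1 and Duox2 were too low to be tested, at no more than 0.432 CPM in any library.

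Of 13 tested genes that supply NADPH to these enzymes, 6 were lower and 7 did not pass (46.2% called, against 25.7% of all tested genes). Idh1, the cytosolic isocitrate dehydrogenase, was at 144, 173 and 126 CPM in LSK-derived libraries, against 318, 282 and 315 CPM in GMP-derived ones (log2 fold change -1.05 ± 0.12, adjusted p = 0.00212). That call held in each of 11 alternative fits. Nadk, which makes NADP from NAD, averaged 149 ± 9.66 CPM in LSK-derived libraries, against 186 ± 6.99 CPM in GMP-derived ones (adjusted p = 0.0189, range 0.00126 to 0.0788). Mthfd2, a mitochondrial folate enzyme gene, was 1.35-fold lower, and its call was lost in 5 of 11 alternatives (adjusted p = 0.0295, up to 0.0733). Pgd, Me1 and Aldh1l1 were the others. Pgd and Me1 were also among the genes induced by NRF2 that are counted above. The groups overlapped in Aldh1l1 (adjusted p = 0.0488). Its values were 0.423, 0.118 and 0.292 CPM in LSK-derived libraries, against 0.0820, 35.7 and 35.2 CPM in GMP-derived ones. Nnt, the mitochondrial transhydrogenase gene, averaged 122 ± 15.0 CPM in LSK-derived libraries, against 104 ± 4.26 CPM in GMP-derived ones and was not called (adjusted p = 0.131). The count of lower genes was 1 without LSK 46 and 5 without GMP 5, the range over the fits without a library.

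Libraries of a group were not interchangeable for these genes. In the GMP-derived group, GMP 5 was the lowest library for 20 of the 37 genes and the highest for 10. GMP 19 was the highest for 16 and the lowest for 14. In the LSK-derived group, LSK 45 was the highest for 20 and the lowest for 10, and LSK 46 the lowest for 19 and the highest for 7. Within a group, the highest and lowest library differed by more than 2-fold in 4 genes of the LSK-derived group (Hmox1, Gpx3, Mgst2 and Cybb) and in 6 of the GMP-derived group (Nqo1, Gpx3, Gsta4, Mgst1, Mgst2 and Cybb). The median SD of log2 CPM was 0.117 in LSK-derived and 0.152 in GMP-derived libraries over the 37 genes, and 0.125 and 0.148 over all tested genes. The spread was thus near that of all tested genes. How often each library was highest or lowest was not counted over all tested genes. GMP 19, which had the highest neutrophil marker sum, was the highest GMP-derived library for genes that include Gsr, Gpx3, Prdx5, Mgst1, Cyba, Ncf1 and Ncf4. For others, which include Srxn1, Gclc, Gclm, Prdx1, Prdx2 and Prdx3, it was the lowest. The part of neutrophils in these values was not tested. Without GMP 19 the log2 fold change of Gpx3 was -1.58 (adjusted p = 0.0547), against -2.08 with all libraries. That of Mgst1 was -1.47 (0.0123), against -1.78. That of Cyba was -0.49 (0.0240), against -0.62, and that of Ncf4 was -0.52 (0.0328), against -0.76.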

How the data were processed

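Per the labels' protocols, TRIzol was used for RNA extraction and a TruSeq kit for sequencing libraries. Raw counts by gene symbol were deposited by the authors in a single table that covers the 6 libraries. The submitters' processing notes name STAR 2.4, HTSeq 0.6.1, DESeq2 and mm9, with no role or order, while the annotation and strandedness of counting are not stated. Reads of genes that overlap on opposite strands therefore cannot be told apart.

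The test was that of edgeR 4.0.16, run in R 4.3.3 (filterByExpr, TMM scaling, glmQLFit with robust estimation and glmQLFTest, no covariate) on all genes, LSK-derived against GMP-derived. P-values were adjusted by Benjamini-Hochberg over the 13406 tested genes, with calls below 0.05. CPM are TMM-scaled, and means carry the SD of 3 libraries. The approximate SE is the size of the log2 fold change over the root of its F statistic. A count of 0 allows up to 3 counts, and floors cover counting error only. Levels per kilobase used the longest coding transcript of GENCODE M21, which also served for exon overlap and shared 50-base windows. Alternatives were no filter, upper-quartile and DESeq2 scaling, DESeq2 1.42.0, limma 3.58.1 voom, each library left out, and Gstm or Gstp rows summed.

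The genes and lists were chosen with earlier results of these data known. Named were all 37 genes, up to 3 called genes per further list and direction by smallest p, and 7 by name, and others complete a count. A further gene of that rule is not reported here. Of 126 symbols on the further lists, 124 were found in the table, older symbols through RefSeq. The edgeR steps were tested on simulated counts, with 5 draws for each of 2 kinds of dispersion. With gene-wise dispersions the share of false calls exceeded the nominal rate in most draws and missed the limit first set for the test, and with trended dispersions it was near nominal. The limit was afterwards applied to the trended draws only, so calls close to the threshold may hold more false ones than the adjusted p states. No pair of libraries within a group matched within sampling noise (lowest chi-square per degree of freedom 8.42).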

Additional observations from a re-analysis of the deposited data

How the results depend on the processing

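No paired analysis was possible because the groups share no replicate number. Of the 11 calls among the 37 genes, 7 held in every alternative (Nqo1, Srxn1, Gsta4, Mgst1, Prdx4, Txn1 and Cat), and Gpx3, Gstm1, Cyba and Ncf4 lost theirs in some. Of the 26 genes not called, 19 stayed so with no change of direction past the threshold. Over the fits without 1 library, lower genes among the 37 numbered 4 to 10, and 5 with no filter on low counts, against 8 in the reported fit. Over all tested genes, those fits called 770 to 1523 genes as higher and 973 to 1944 as lower, against 1577 and 1867. Gstm5 takes the direction of Gstm1 when the Gstm rows are summed (log2 fold change -1.19), since Gstm1 holds most of that sum. The causes of the other changes were not tested, beyond the fewer samples in fits without a library. Upper-quartile scaling shifted the median log2 fold change by 0.03. All 37 genes passed the count filter, and Gsta4 had the fewest counts in a library among those called, 13 in GMP 5 and in GMP 19.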
